A study of Mus musculus with 19 samples.

Results

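The 6 genes Cxcl1, Cxcl2, Cxcl3, Cxcl5, Ppbp and Pf4 were chosen by symbol from the 27998 genes listed for each of 19 single-cell RNA-seq libraries, and their levels were followed over cell lineages and days at a healing tendon injury in mice. Each mouse of the model received a dorsal scald burn together with cutting of the Achilles tendon, after which bone forms at the wrong place (heterotopic ossification), and cells were taken from the tenotomy site. The days were represented by 4 libraries (day 0), 3 (day 3), 4 (day 7) and 4 (day 21), and 4 more came from mice given p7N3, a peptide that activates CD47, at 10 mg/kg daily by intraperitoneal injection from 3 days before to 3 days after injury. The labels place p7N3 replicates 1 to 3 at day 7 and give no day for replicate 4. The sources name C57BL/6J mice and, for the series as a whole, LysmCre/Tgfb1fx/fx mice, in which Cre under the myeloid Lyz2 promoter deletes Tgfb1, but the genotype of each library is not given. The study's text treats day 0 as uninjured and the untreated animals beside p7N3 as vehicle-injected, while the labels list the burn for day 0 too. The study describes its single-cell runs as repeated at each time point to gauge variation between mice, but which mice went into which library is not given, so p-values measure the spread between these libraries, which may be technical.

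CXC chemokines that carry the motif Glu-Leu-Arg before their first cysteines bind the receptor Cxcr2 on neutrophils and guide these cells out of blood into injured tissue. Cxcl1, Cxcl2 and Cxcl3 are made within hours of an inflammatory stimulus through NF-kappaB, and Cxcl5 is known chiefly from epithelial and stromal cells. Ppbp (platelet basic protein, the precursor of Cxcl7) and Pf4 (platelet factor 4, Cxcl4) are known from the alpha granules of platelets. Pf4 lacks the motif, binds glycosaminoglycans, and is not a ligand of Cxcr2.

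The genes lie side by side. In GRCm38 with GENCODE vM21 all 6 are protein-coding genes on the plus strand of chromosome 5, within 146579 bases: Cxcl5 at chr5:90759360-90761624, Ppbp at chr5:90768518-90770063, Pf4 at chr5:90772435-90773383, Cxcl3 at chr5:90786103-90789600, Cxcl1 at chr5:90891241-90893115 and Cxcl2 at chr5:90903871-90905938. A further chemokine gene, Cxcl15, lies between Cxcl3 and Cxcl1 at chr5:90794534-90803067 and was nearly absent from these libraries, with 2 UMIs over the 3 day 3 libraries.

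Promoter sequences of RefSeq (GRCm38.p6) matched 5 of the 6 genes, all but Cxcl5. They are shown because the 3 inducible genes share a short sequence that the neighbouring platelet genes lack. The 150 bases before the RefSeq start are given 5′ to 3′ on the plus strand, with GGGAATTTCCC, the longest run of letters common to the Cxcl1, Cxcl2 and Cxcl3 stretches, and TATAAA in capitals. They span chr5:90891095-90891244 for Cxcl1, chr5:90903749-90903898 for Cxcl2, chr5:90785951-90786100 for Cxcl3, chr5:90768368-90768517 for Ppbp and chr5:90772285-90772434 for Pf4.
Cxcl1: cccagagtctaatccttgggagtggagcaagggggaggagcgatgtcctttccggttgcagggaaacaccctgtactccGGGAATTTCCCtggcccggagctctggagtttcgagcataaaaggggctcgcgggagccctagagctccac
Cxcl2: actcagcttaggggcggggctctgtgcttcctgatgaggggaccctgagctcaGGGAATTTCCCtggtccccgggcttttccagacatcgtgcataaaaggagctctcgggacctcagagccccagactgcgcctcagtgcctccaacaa
Cxcl3: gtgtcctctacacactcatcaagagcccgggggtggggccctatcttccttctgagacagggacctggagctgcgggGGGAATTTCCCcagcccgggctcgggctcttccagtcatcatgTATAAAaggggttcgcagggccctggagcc
Ppbp: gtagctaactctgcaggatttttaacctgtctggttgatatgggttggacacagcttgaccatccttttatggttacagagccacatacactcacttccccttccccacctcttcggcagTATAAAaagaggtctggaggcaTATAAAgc
Pf4: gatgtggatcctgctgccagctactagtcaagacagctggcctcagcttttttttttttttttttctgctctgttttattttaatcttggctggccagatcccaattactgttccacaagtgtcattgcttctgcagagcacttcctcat

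The run GGGAATTTCCC began 71 bases before the RefSeq start in Cxcl1, 97 in Cxcl2 and 73 in Cxcl3. These distances depend on the start used. The stretches of Cxcl1 and Cxcl2 end at 90891244 and 90903898, past the GENCODE starts at 90891241 and 90903871, so the Cxcl2 stretch in particular runs into the gene as GENCODE places it. With both strands searched over the whole windows, it was in 14 of 32851 RefSeq promoters (0.0426%). The run was picked from the Cxcl1, Cxcl2 and Cxcl3 stretches, so its presence in these 3, and of the consensus within it, is not a test. It holds a match to the NF-kappaB consensus on each strand, a looser pattern that was found in 8.46% of promoters and in the same 3 of the 5 genes. TATAAA was in 13.6% of promoters and, among these genes, in Cxcl3 and Ppbp. A match is a run of letters and not a measured binding site.

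Levels are given as CPM, the UMIs of a gene as a share of all UMIs of the summed cells, scaled so that all genes add up to 1000000. Each UMI stands for the 3′ end of a transcript, so levels of different genes can be compared without a correction for length. Barcodes had to show 500 genes, with mitochondrial UMIs at 25% or less, and 39541 cells passed, 571 to 1111 a library at day 0 and 907 to 3668 in the other groups. The UMIs behind a whole-site value numbered 3019467 to 5383855 at day 0 and 11064153 to 39870492 in the other groups. Cells were grouped into lineages by clustering on genes other than the 6, and each lineage carries the suffix "-like" because its name rests on markers. The monocyte/macrophage-like lineage, whose markers include the monocyte genes Ly6c2 and Ccr2, is mostly written macrophage-like below. The makeup of the site moved with the day: monocyte/macrophage-like cells were on average 10.1% of cells at day 0, 63.9% at day 3, 36.3% at day 7 and 13% at day 21, stromal-like cells 31.0%, 13.8%, 27.6% and 29.8%, and granulocyte-like cells 0.40%, 8.24%, 0.29% and 0.18%. In whole-site sums a smaller number of cells of a type and less RNA per cell cannot be told apart. No pair of libraries shared more than 22 cell barcodes, at most 1.26% of the smaller library.

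All 6 genes were higher at the whole site at day 3 than at day 0. In this comparison 70.2% of all genes tested at the whole site passed the threshold (35.7% higher, 34.5% lower), so a call alone sets these 6 little apart. Cxcl2 stood at 135, 149, 112 and 85.0 CPM in the 4 day 0 libraries and at 2019, 2254 and 3314 CPM in the 3 day 3 libraries, a log2 difference of 4.81 ± 0.40 (SE; edgeR quasi-likelihood test, adjusted p = 5.68e-09). Cxcl5 was near its limit of detection before injury, with 0.186, 0.662, 1.65 and 1.44 CPM from 16 UMIs in all, and reached 446, 281 and 574 CPM (log2 difference 9.22 ± 0.76, edgeR adjusted p = 5.46e-09). It thus had the largest whole-site log2 difference among the 6. Cxcl3 rose from 0, 0.994, 1.89 and 0 CPM to 66.3, 77.2 and 241 CPM (log2 difference 8.00 ± 1.12, edgeR adjusted p = 4.26e-06), with replicate 3 of day 3 above the others.

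Cxcl1 was the member of the inducible group that was already abundant at day 0, with 514, 209, 416 and 279 CPM against 741, 809 and 833 CPM at day 3 (log2 difference 1.56 ± 0.28, edgeR adjusted p = 6.34e-05). Ppbp went from 2.41, 3.64, 4.49 and 0.479 CPM to 51.8, 31.0 and 96.1 CPM (log2 difference 4.87 ± 0.54, edgeR adjusted p = 2.58e-07). Pf4 went from 573, 480, 478 and 535 CPM to 1826, 2085 and 2460 CPM (log2 difference 2.45 ± 0.15, edgeR adjusted p = 1.68e-10). The log2 differences rest on TMM scaling and can exceed the ratio of the CPM means.

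Between day 3 and day 7 the whole-site levels of 5 of the 6 fell, where 56% of all genes passed (28% lower). Cxcl2 came down to 444, 247, 449 and 661 CPM, a log2 difference of -2.68 ± 0.36 (edgeR adjusted p = 7.9e-06). Ppbp came down to 6.41, 14, 8.43 and 11.7 CPM (-2.74 ± 0.39, edgeR adjusted p = 1.37e-05). The falls of Cxcl3 (-2.17), Pf4 (-1.58) and Cxcl1 (-1.07) also passed. Cxcl5 was the exception: its day 7 libraries held 187, 411, 195 and 416 CPM, which overlapped day 3, and the log2 difference of -0.71 ± 0.46 did not pass (edgeR adjusted p = 0.198).

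From day 7 to day 21 again 5 of the 6 fell, with 45.6% of all genes passing (22.9% lower). Cxcl5 fell to 40.6, 9.22, 19.97 and 48.1 CPM (log2 difference -3.34 ± 0.47, edgeR adjusted p = 2.55e-05), later than the main fall of Cxcl2. Cxcl2 reached 130, 72.9, 73.7 and 62.8 CPM and Cxcl3 4.78, 1.27, 0.613 and 3.28 CPM. Cxcl1, at 431, 260, 298 and 241 CPM, overlapped day 7, and its log2 difference of -0.51 ± 0.26 did not pass (edgeR adjusted p = 0.111). The day 3 and day 7 libraries each enter more than one of these comparisons, so the comparisons are not independent.

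At day 21 Cxcl5 had not come back to its day 0 level. The day 21 mean of 29.5 ± 18.0 CPM (SD, n = 4) stood against 0.985 ± 0.682 CPM (n = 4), with no overlap and a log2 difference of 5.18 ± 0.79 (edgeR adjusted p = 3.49e-05). Pf4 was slightly below day 0, at 359 ± 60.6 against 516 ± 46.5 CPM (-0.34 ± 0.14, edgeR adjusted p = 0.0477), a call that 14 of 27 alternative settings did not keep. The other 4 did not pass, in a comparison where 50.8% of all genes did. The plot of whole-site levels shows these courses library by library.

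**Figure D1:**
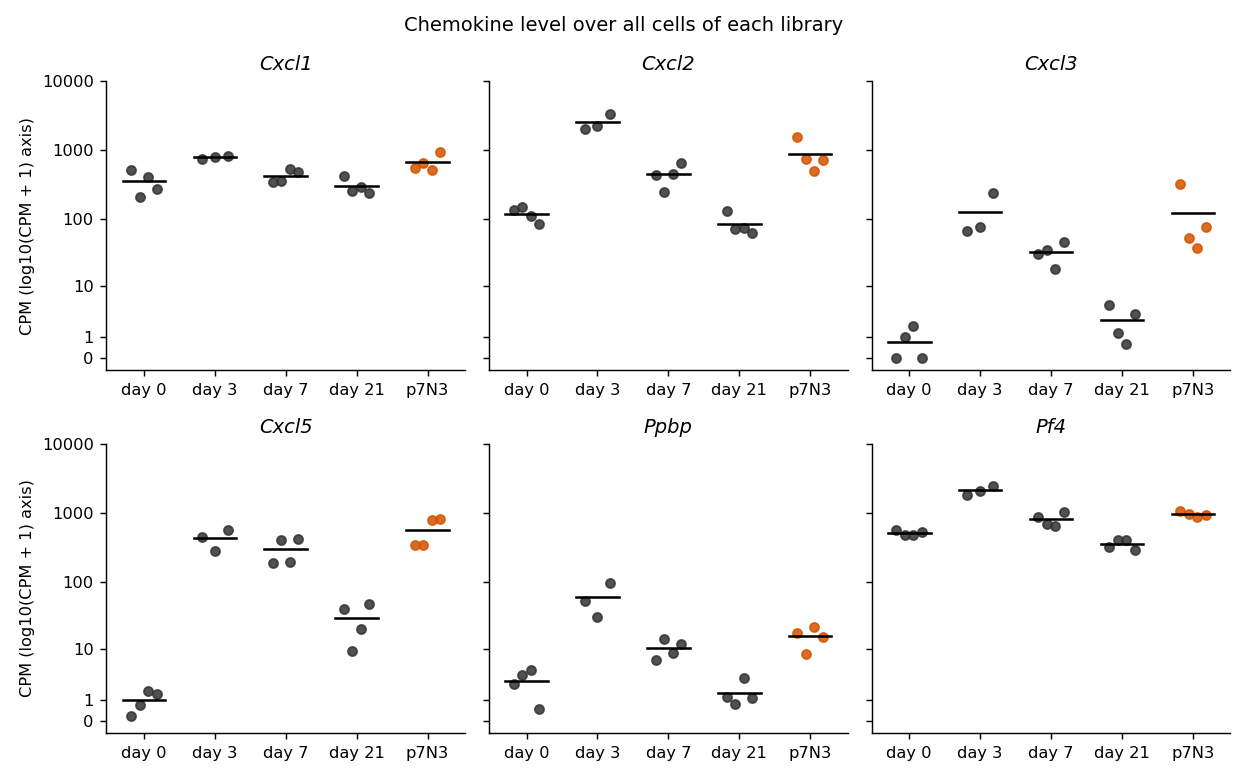
Whole-site level of each of the 6 genes (CPM, on an axis of log10(CPM + 1)) in every library of day 0, day 3, day 7, day 21 and p7N3, with the group mean as a line. Among the days, all 6 means are highest at day 3, and Cxcl5 is the gene whose day 21 libraries (9.22 to 48.1 CPM) stay clear of its day 0 libraries (0.186 to 1.65 CPM).

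The 6 genes had different lineages as their main source. Of all Cxcl5 UMIs, stromal-like cells held on average 92.6%, 92.2%, 94.2% and 92.5% at day 3, day 7, day 21 and in p7N3. There they were 13.8% to 29.8% of cells and had 32.9%, 38.4%, 30.2% and 44.2% of all UMIs. Macrophage-like cells held 84.9% to 93.0% of Pf4 UMIs in every group and 72.3% to 83.9% of Ppbp UMIs from day 3 on. At day 0 most of the 45 Ppbp UMIs, 72.8% on average, were in endothelial-like cells, in which 8 UMIs of the platelet marker Gp9 were also found. No Gp9 UMI was found in macrophage-like or stromal-like cells of day 0. Gp9 is 1 of 10 listed platelet and megakaryocyte markers, and the others need not follow it. At day 0, 3 of the 4 tested were lower in macrophage-like than in stromal-like cells, beside 19% of all genes. At the whole site 4 of the 5 tested were lower at day 3 than at day 0 and 0 higher, beside 34.5% and 35.7% of all genes.

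The sources of Cxcl1, Cxcl2 and Cxcl3 were more divided. Stromal-like cells held 78.7% of Cxcl1 UMIs at day 0 and 64.4% at day 3 but 37.5% at day 21, when pericyte/smooth muscle-like cells held 38.3 ± 3.3% (SD, n = 4) while having 7.56% of all UMIs. Macrophage-like cells held 58.8% to 67.2% of Cxcl2 UMIs over the 4 days. Cxcl3 had the most mixed origin: at day 3 granulocyte-like cells held 41.9%, macrophage-like cells 33.7% and stromal-like cells 19.1% of its UMIs.

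**Figure D2:**
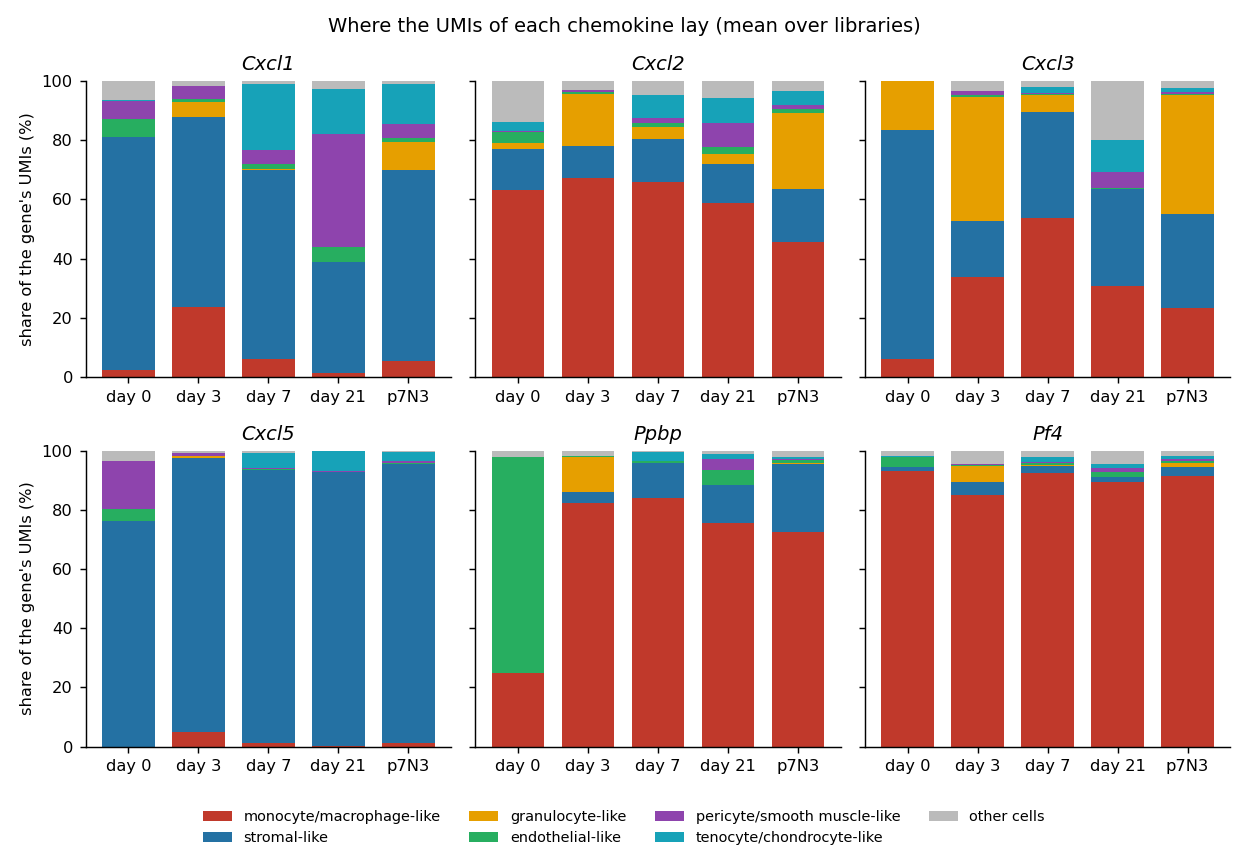
Mean share (%) of each gene's UMIs that came from each lineage, for day 0, day 3, day 7, day 21 and p7N3, as stacked bars from 0 to 100. Cxcl5 bars are nearly all stromal-like from day 3 on (92.2% to 94.2%), Pf4 bars nearly all macrophage-like (84.9% to 93.0%), and the day 0 bars of Cxcl3 and Cxcl5 rest on 11 and 16 UMIs.

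Within stromal-like cells, the fibroblast-type cells of the site, Cxcl5 and Cxcl1 were the most abundant members from day 3 on, while at day 0 Cxcl1 was and Cxcl5 was near 0. Cxcl5 stood at 0.472, 2.6, 2.73 and 1.5 CPM at day 0, 1304, 698 and 1791 CPM at day 3, 448, 1164, 443 and 907 CPM at day 7 and 113, 28.6, 64.1 and 154 CPM at day 21. Day 0 was below every later library, while day 3 and day 7 overlapped. The log2 differences were 9.69 ± 0.77 from day 0 to day 3 (edgeR adjusted p = 3.72e-09), -0.87 ± 0.44 from day 3 to day 7, which did not pass (edgeR adjusted p = 0.125), and -2.98 ± 0.45 from day 7 to day 21 (edgeR adjusted p = 5.8e-05). At day 21 the mean level was still 49.2 times that of day 0 (89.9 ± 54.8 against 1.83 ± 1.06 CPM, n = 4 each, log2 difference 5.84 ± 0.83, edgeR adjusted p = 2.63e-05).

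Stromal-like Cxcl1 took another course. It stood at 1151, 608, 738 and 665 CPM at day 0, rose to 1565, 1496 and 1611 CPM at day 3 (log2 difference 1.12 ± 0.25, edgeR adjusted p = 5.7e-04) and was 660, 567, 875 and 739 CPM at day 7. At day 21 it was 509, 328, 404 and 285 CPM, below all 4 day 0 libraries (log2 difference -0.99 ± 0.23, edgeR adjusted p = 0.00293). So Cxcl1 and Cxcl5 ended on opposite sides of day 0 in the stromal-like class, whose clusters differed between these days.

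All 6 members passed as higher at day 3 than at day 0 in stromal-like cells, where 61.1% of all genes passed (32% higher). Cxcl2 went from 29.3 to 61.4 CPM at day 0 to 713 to 1027 CPM at day 3 (4.26 ± 0.41), Cxcl3 from 0 to 3.82 CPM to 43.1 to 121 CPM (5.66 ± 1.1) and Pf4 from 14.3 to 26.2 CPM to 246 to 320 CPM (3.99 ± 0.23). Ppbp had no UMI in the 4 day 0 libraries and 3.48 to 14.2 CPM at day 3, at least 14.99-fold higher against a floor of 3 UMIs over the group, and the call was lost in 5 of 30 alternatives, among them the one without the replicate 4 libraries (edgeR adjusted p = 0.0737). These 4 need the level in other cells beside them. Erythrocyte-like cells of day 3, which are not known to make chemokines, held 775 to 1045 CPM of Cxcl2, 110 to 203 CPM of Cxcl3, 262 to 498 CPM of Pf4 and 0 to 83.8 CPM of Ppbp in the 2 libraries with enough of them, ranges that overlapped or lay above the stromal-like ones. Their Cxcl1 was 115 to 186 CPM and their Cxcl5 15.5 to 22.0 CPM, far below the stromal-like values. The erythrocyte-like cluster is itself not free of leukocyte RNA. Of its 148 cells over all groups, 66.9% held a UMI of C1qa and 35.8% one of Ptprc. In the stromal-like cluster led by Cfd and Prg4 the shares were 85.9% and 45.2%, at greater depth.

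Transcripts of other cell types also moved with the day in stromal-like cells. The summed macrophage markers rose from 142 CPM at day 0 to 1629 CPM at day 3 and the summed granulocyte markers from 10.1 to 1836 CPM. With all Ptprc-positive cells left out, 419 stromal-like cells of day 3 still held 1531 and 1811 CPM of these lists, 1600 CPM of Cxcl1 and 1246 ± 660 CPM (SD, n = 3) of Cxcl5. The part of these transcripts in the stromal-like Cxcl2, Cxcl3, Ppbp and Pf4 values was not tested.

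At day 7, 4 members were lower than at day 3 in stromal-like cells, where 38.4% of all genes passed: Cxcl1 (-1.23), Cxcl2 (-2.41), Cxcl3 (-1.41) and Pf4 (-2.56). The call of Cxcl3 (edgeR adjusted p = 0.0439) was not kept in 11 of 31 alternatives. From day 7 to day 21, 5 members fell, all but Ppbp, with 37.6% of all genes passing. Different clusters made up the stromal-like class on each day, led by Myoc and Gsn at day 0, by Cfd and Prg4 at day 3, by Sfrp4, Crabp1 and Gzme clusters at day 7, and by Sfrp4 and Myoc clusters at day 21.

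In macrophage-like cells Cxcl2 was the leading Cxcr2 ligand on every day. It stood at 825, 993, 1165 and 847 CPM at day 0, 2965, 3578 and 4038 CPM at day 3, 1194, 882, 1928 and 1965 CPM at day 7 and 824, 483, 460 and 653 CPM at day 21. Day 3 was clear of the other days, with log2 differences of 2.13 ± 0.24 from day 0 (edgeR adjusted p = 2.19e-07) and -1.18 ± 0.23 to day 7 (edgeR adjusted p = 4e-04). Its fold change over day 0 was smaller than in stromal-like cells by 2.08 ± 0.44 on the log2 scale (edgeR interaction, adjusted p = 5.23e-04), with the limit on the stromal-like values given above.

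Pf4 went the other way in these cells. It was the most abundant of the 6 in macrophage-like cells, at 5065, 5326, 6915 and 7468 CPM at day 0, and lower at day 3 (3229, 3973 and 4258 CPM, log2 difference -0.45 ± 0.13, edgeR adjusted p = 0.01), with no overlap. It then stayed level, at 3182 to 4277 CPM at day 7 (0.03 ± 0.13) and 3655 to 4222 CPM at day 21 (0.01 ± 0.12), and these differences did not pass. The whole site thus held more Pf4 at day 3 while each macrophage-like sum held less. These sums join monocytes and macrophages, and their makeup changed. In the main clustering a cluster led by Chil3 and Gm9733 held 25 of the 356 cells of this class at day 0 and 1769 of 3707 at day 3. The part of this shift in the Pf4 difference was not tested. The fall at day 3 was lost with the finer clustering (-0.26, adjusted p = 0.141). Against day 0, Pf4 was also lower at day 21 (-0.41 ± 0.12, edgeR adjusted p = 0.0188), where 20.5% of all genes passed (8.06% lower), and the other 5 did not pass.

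The other members were less abundant in macrophage-like cells. Cxcl1 rose at day 3 from 76.7, 76.4, 232 and 42.9 CPM to 318, 409 and 471 CPM (2.19 ± 0.37, edgeR adjusted p = 5.06e-05) and fell at day 7 and again at day 21. Cxcl3 rose from 0, 0, 3.68 and 0 CPM to 50.2, 72.8 and 108 CPM and did not pass as lower at day 7, at 93.6, 83.1, 32.9 and 140 CPM (0.26 ± 0.40, edgeR adjusted p = 0.664). The sign of this difference was negative with the finer clustering (-0.85, edgeR adjusted p = 0.368) and with the replicate block (-0.15, edgeR adjusted p = 0.809). Ppbp rose from 10.5, 12.1, 18.4 and 0 CPM to 93.5, 59.2 and 145 CPM (3.52 ± 0.62, edgeR adjusted p = 7.59e-05). In counts, 5 of the 6 were higher and Pf4 lower at day 3, where 37.8% of all genes passed (21.1% higher, 16.7% lower); 4 fell at day 7, where 29.3% passed (15.1% lower), and 5 at day 21, where 15.5% passed (7.51% higher, 8.02% lower).

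Cxcl5 in macrophage-like cells is best read beside other cells. It had no UMI in the 4 day 0 libraries and 47.1, 32.3 and 52.6 CPM at day 3, at least 20.1-fold higher against a floor of 3 UMIs over the group. At day 3 the mean was 44.0 CPM here, 45.1 CPM in dendritic cell-like cells and 47.9 CPM in the unnamed clusters led by Cma1 and Krt14. Endothelial-like cells stood somewhat lower, at 30.3 CPM, and erythrocyte-like cells lower still, in the range given above. Pericyte/smooth muscle-like cells stood higher, at 153 ± 97.6 CPM (SD, n = 3), and stromal-like cells far higher. Beside Pf4 and Ppbp in macrophage-like cells, the 10 platelet and megakaryocyte markers summed on average to 0.436 CPM at day 0, 2.45 at day 3, 4.4 at day 7, 6.72 at day 21 and 3.67 in p7N3. Tubb1 was at 0 in every group and Gp9 had 0 to 4 UMIs in a group. Of the 2 markers abundant enough to be tested, 1 was higher at day 7 than at day 3 and no other comparison over groups passed. The part of platelet transcripts in Pf4 and Ppbp was not tested.

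Different clusters made up the macrophage-like class too. A cluster led by Cd209f and Ccl8 held most of it at day 0, clusters led by Chil3 and by Pf4, Folr2 and Cbr2 at day 3, and clusters led by Mmp12, Cd209f and Ifit3 at day 7 and in p7N3. The plot of levels by lineage shows the macrophage-like and stromal-like courses beside each other.

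**Figure D3:**
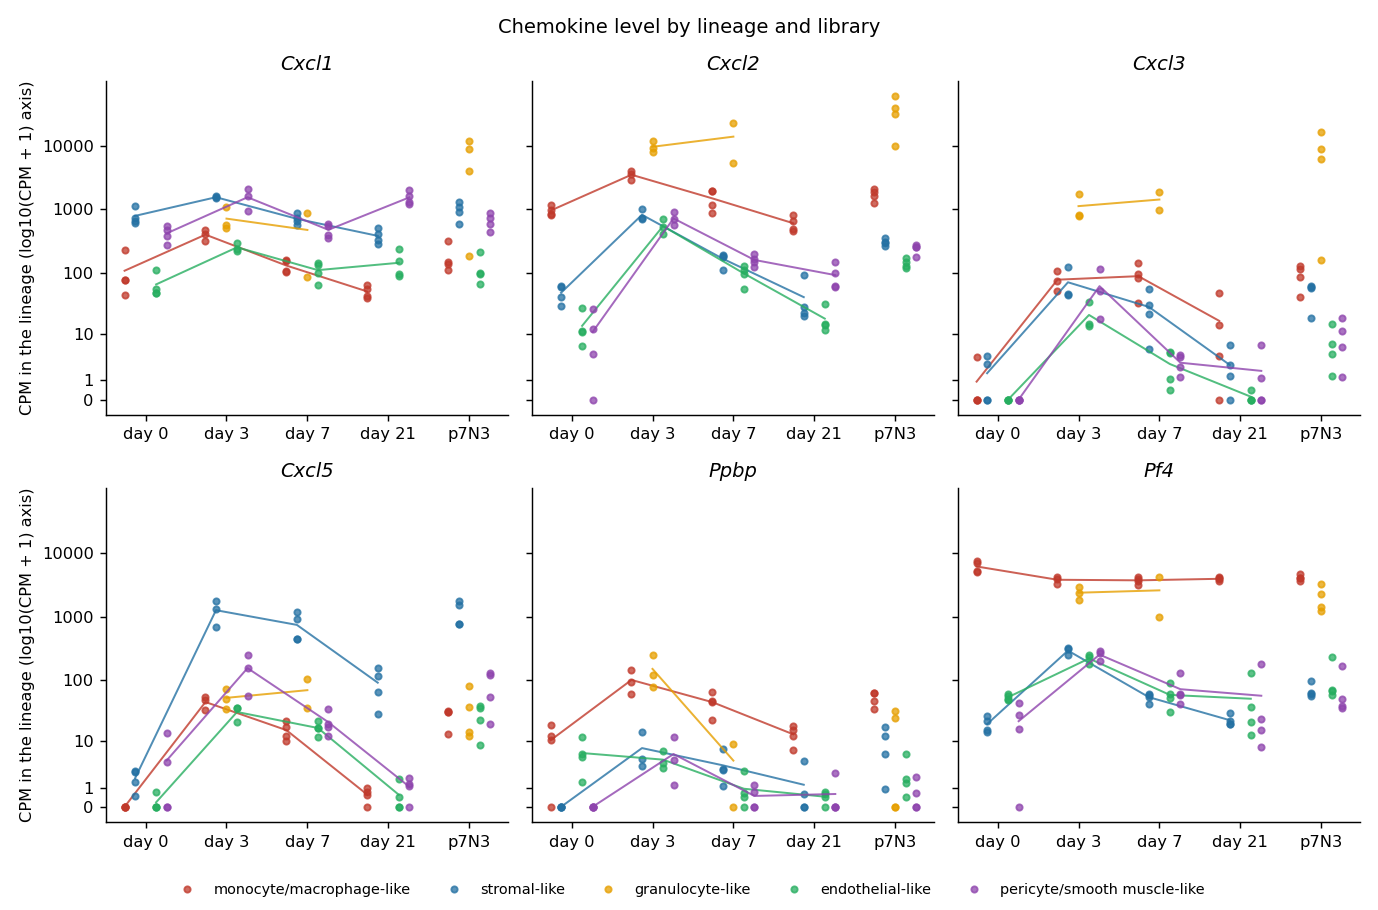
Level (CPM, on an axis of log10(CPM + 1)) of each gene in every library as points, with lines joining the means of the days, for stromal-like, macrophage-like, endothelial-like, granulocyte-like and pericyte/smooth muscle-like cells. Stromal-like points are on top for Cxcl5, macrophage-like points for Pf4, and pericyte/smooth muscle-like points reach 1198 to 2043 CPM of Cxcl1 at day 21.

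Tested within each day, the split between macrophage-like and stromal-like cells held from day 0 to day 21. Over this comparison 40.7%, 75.1%, 75.8%, 60.7% and 75.6% of all genes passed at day 0, day 3, day 7, day 21 and in p7N3. Cxcl1 was lower in macrophage-like cells on every day, with log2 differences of -2.91, -1.73, -2.11, -2.66 and -2.28, and none of these overlapped. Cxcl2 was higher in them by 4.46, 2.38, 3.47, 4.39 and 2.84, and Pf4 by 8.38, 3.98, 6.49, 7.75 and 6.32. Cxcl5 was lower by 4.51 ± 0.18, 5.18 ± 0.17, 7.18 ± 0.41 and 5.09 ± 0.17 from day 3 on and did not pass at day 0, where both lineages were near 0.

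Cxcl3 was the member that did not separate these lineages clearly. It was higher in macrophage-like cells at day 7 (2.14 ± 0.56, edgeR adjusted p = 7.76e-04) and day 21 (2.82 ± 1.06, edgeR adjusted p = 0.0204), and did not pass at day 3 (0.51 ± 0.57, edgeR adjusted p = 0.421) or in p7N3 (1.11 ± 0.53, edgeR adjusted p = 0.0564). Ppbp was higher in macrophage-like cells by 4.11, 4.07, 4.13 and 3.03 from day 3 on and at least 20.6-fold at day 0.

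The gap between the lineages itself changed for 3 members. That of Pf4 narrowed by 4.41 ± 0.38 on the log2 scale from day 0 to day 3 and widened by 2.51 ± 0.32 from day 3 to day 7 and by 1.27 ± 0.32 from day 7 to day 21 (edgeR interaction, adjusted p = 1.22e-11, 1.85e-07 and 0.00647). The narrowing of Pf4 lay mostly in the rise of its stromal-like values. That of Cxcl2 narrowed at day 3, as given above. For both genes the limit on the stromal-like values holds here too. The Cxcl5 gap from day 3 to day 7 moved by -0.67 ± 0.22 (adjusted p = 0.0348), which 13 of 30 alternatives did not keep. Over these interactions 19.6% of all genes passed from day 0 to day 3, 16.8% from day 3 to day 7 and 10.7% from day 7 to day 21.

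**Figure D4:**
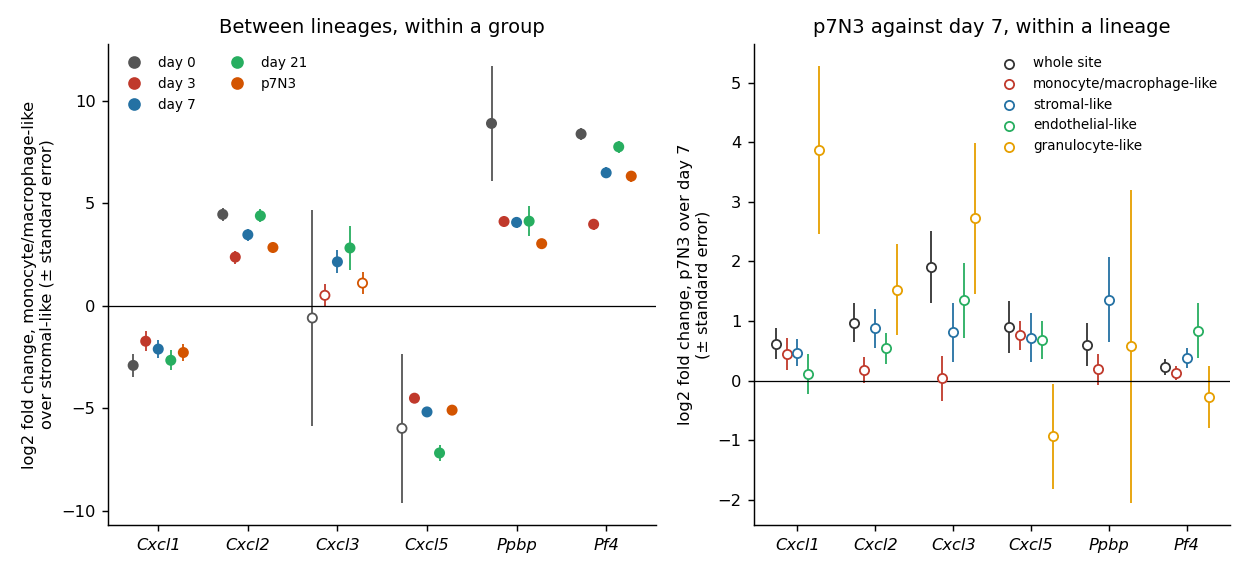
Log2 differences with standard errors for the 6 genes: macrophage-like minus stromal-like within each group on the left, where filled points passed the threshold, and p7N3 minus day 7 in each lineage on the right, where all points are open because none passed. Cxcl1 and Cxcl5 lie below 0 and Cxcl2, Ppbp and Pf4 above 0 on the left, Cxcl3 has points on both sides of 0, and the day 0 points of Cxcl5 and Ppbp are fits against a lineage with no UMI.

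Shares of cells with at least 1 UMI were compared after each cell was thinned to 1500 UMIs, since the lineages differed in depth, with a median of 4129 UMIs in T/NK-like cells and 12688 UMIs in stromal-like cells of day 7 and 35119 UMIs in stromal-like cells of day 3. A UMI of Cxcl5 was found in 53.9 ± 15.8% of stromal-like cells at day 3, 24.5 ± 6.0% at day 7 and 4.33 ± 2.0% at day 21 (SD over 3, 4 and 4 libraries), and unthinned in 89.8%, 48.0% and 11.8%. T/NK-like cells, which are not known to make it, held 1.58% at day 7 (231 cells, 5.20% unthinned), and macrophage-like cells 2.50% (7.95% unthinned, median depth 5512 UMIs), so stromal-like cells alone among these stood well above this background. For Pf4 at day 7 the shares were 66.0% of macrophage-like, 5.18% of stromal-like and 6.61% of T/NK-like cells, and unthinned 76.8%, 35.4% and 17.7%.

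For Cxcl2 at day 7 the shares were 36.7% of macrophage-like, 14.96% of stromal-like and 15.6% of T/NK-like cells, and unthinned 54.9%, 53.0% and 33.0%. The thinned stromal-like shares of Cxcl2 and Pf4 at day 7 were below those of T/NK-like cells, and the unthinned ones, at the greater depth of stromal-like cells, were above them, so no expression in stromal-like cells was read from these shares. Ppbp was found in few cells, 2.96% of macrophage-like cells (6.78% unthinned) and 0% of T/NK-like cells (1.03% unthinned) at day 7. In the same thinned macrophage-like cells, pooled over libraries, Cxcl2 and Cxcl3 were found together in 3.23%, against 1.43% if independent over the pooled cells. For Ppbp and Pf4 the values were 2.83% and 1.93%. Differences between libraries enter these figures. Cxcl1 and Cxcl5 were found together in 11.1% of stromal-like cells against 8.07%.

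Granulocyte-like cells, whose naming markers include Cxcr2, held the highest Cxcl2 and Cxcl3 levels of any named lineage. They could be summed in the 3 day 3 libraries, in day 7 replicates 1 and 4 and in the 4 p7N3 libraries. Cxcl2 stood at 8116, 9179 and 11909 CPM at day 3, above every macrophage-like library of that day (log2 difference 1.68 ± 0.31, edgeR adjusted p = 6.39e-05, where 19.2% of all genes passed). Cxcl3 stood at 819, 796 and 1765 CPM there (4.05 ± 0.63, edgeR adjusted p = 4.01e-06). At day 7 the differences were 2.77 and 3.92 (2.09% of all genes passed), and in p7N3 4.35 and 6.33 (13.3% passed), and both genes passed in each. The day 7 values rest on few cells, since all 4 libraries of that day held 36 granulocyte-like cells. Of the 6 members, 3 passed as higher at day 3 (10.9% of all genes) and 2 at day 7 (0.912%). In p7N3 3 were higher and 1 lower (5.71% and 7.55%).

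This lineage joined unlike cells. In the finer clustering its 665 cells came apart into cells led by Retnlg and S100a8, which are neutrophil genes, and part of a cluster led by Arg1, Cxcl3 and Il1a, which its markers named macrophage-like and of whose 910 cells 662 were from day 3. In this second cluster the mean levels over 9 libraries were 17929 CPM of Cxcl2, 3627 CPM of Cxcl3 and 3194 CPM of Cxcl1, with wide SDs of 16483, 5002 and 3600.3 CPM. In the Retnlg cluster they were 9350.3 ± 6435 CPM of Cxcl2 and 771 ± 1234 CPM of Cxcl3 (SD, n = 10). With the finer clustering the differences from macrophage-like cells were smaller, 1.39, 1.3 and 2.37 for Cxcl2 and 2.01, 1.04 and 2.07 for Cxcl3 at day 3, day 7 and in p7N3, and that of Cxcl3 at day 7 no longer passed (edgeR adjusted p = 0.612). The 2 calls that turned direction with the finer clustering were both in this lineage: Cxcl1 in p7N3 (5.06 against macrophage-like cells, then -0.31) and Ppbp at day 3 (0.76, then -0.81).

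Over groups, no member passed within granulocyte-like cells from day 3 to day 7 or between p7N3 and day 7, and neither did any other gene (0% of 2180 genes in both, with 292 and 184 genes at an unadjusted p under 0.05 and 18 and 3 genes called by DESeq2). The p7N3 libraries were far apart in this lineage, with 61177, 32524, 10153 and 39391 CPM of Cxcl2 and 16674, 6286, 157 and 8840 CPM of Cxcl3. Their replicate 3 was the low library for both.

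Other lineages showed where the remaining RNA lay. Pericyte/smooth muscle-like cells, the mural cells of vessels, held 549, 272, 383 and 468 CPM of Cxcl1 at day 0, 2077, 1650 and 943 at day 3, 595, 358, 556 and 394 at day 7 and 2043, 1300, 1647 and 1198 at day 21. Their level at day 21 was again in the range of day 3 and lay above all 4 stromal-like values of day 21, 285 to 509 CPM. These values were not tested.

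Endothelial-like cells line the vessels that neutrophils cross, and 5 members were abundant enough there to be tested. All 5 were higher at day 3 than at day 0, where 54.4% of all genes passed, Cxcl2 at 545 ± 142 against 13.6 ± 9.08 CPM (5.47 ± 0.36) and Cxcl1 at 251 ± 40.0 against 64.6 ± 30.7 CPM (2.09 ± 0.40). Macrophage markers summed to 1524 CPM and granulocyte markers to 1595 CPM in them at day 3, so the limit given for stromal-like cells holds here too. At day 21 Cxcl1 was above day 0, at 143 ± 68.1 CPM (1.19 ± 0.37, edgeR adjusted p = 0.0206, where 27.9% of all genes passed), although the groups overlapped. Different clusters made up this class as well. One led by Timp4 and Tcf15 held 1031 of 1111 cells at day 0, 6 of 97 at day 3 and 427 of 764 at day 21. Another led by Fam167b and Selp held 46, 79 and 276. The part of this shift in the differences was not tested.

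Within lineages the members marked particular clusters. Over the finer clusters found in at least 6 libraries, and by means over the libraries of all groups, Cxcl1 was highest in a stromal cluster led by Has1, Tnfaip6 and Ptx3, genes of hyaluronan matrix, at 3571 ± 809 CPM (SD, n = 16). Cxcl5 was highest in stromal clusters led by Crabp1 and Il1rl1 (1152 ± 898 CPM, n = 10), by Cxcl14 and Timp1 (1059 ± 525, n = 8) and by Gzme and Sfrp1 (951 ± 513, n = 10). These means pool libraries of different days, and the clusters lay on different days: the Cxcl14 cluster held 1361 ± 525 CPM at day 3 (n = 3), when the Crabp1 and Gzme clusters were too small to sum, and these 2 held 1148 ± 725 and 796 ± 192 CPM at day 7 (n = 4 each). Pf4 was highest in macrophage clusters led by Cd209f and Cd163 (6465 ± 1250 CPM, n = 18) and by Syngr1 and Trem2 (6236 ± 1160, n = 11), and low in those led by Chil3 and Gm9733 (200 CPM on average, n = 11) and by Ifitm6 and Plac8 (66.6, n = 10). The Chil3 and Gm9733 cluster held 1629 of the day 3 cells. Its mean Cxcl2 level over the libraries of all groups was 4428 ± 1558 CPM, beside its low Pf4. In thinned macrophage-like cells of day 3 both Cxcl2 and Pf4 were found in 54.9%, against 54.1% if independent over the pooled cells. Thinned stromal-like cells of day 3 also held them, Cxcl2 in 515 and Pf4 in 265 of 814 cells. With such levels in other cells, these shares cannot show whether Cxcl2 and Pf4 part cell by cell.

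**Figure D5:**
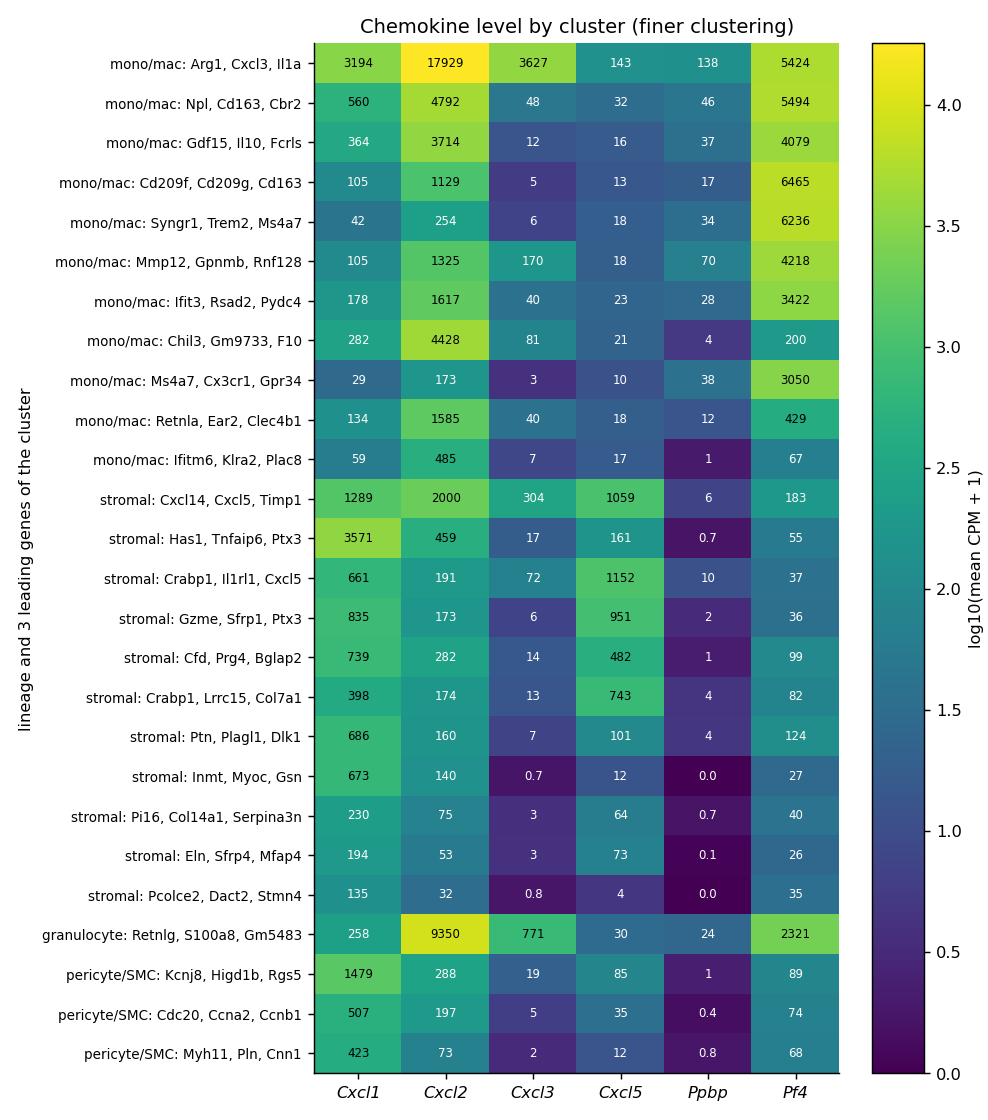
Mean level (CPM as numbers, log10(CPM + 1) as colour) of the 6 genes in each stromal, macrophage, granulocyte and pericyte cluster of the finer clustering present in at least 6 libraries, with clusters labelled by their 3 leading genes. Cxcl5 is bright in the Crabp1, Cxcl14 and Gzme clusters, Cxcl1 in the Has1 cluster (3571 CPM), and the Arg1, Cxcl3 and Il1a cluster is bright for Cxcl1, Cxcl2, Cxcl3, Ppbp and Pf4.

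The genes most like each member over 170 library-by-lineage sums, by Pearson correlation of log2 levels among 10677 genes, are given as a description, since sums of one library share its depth. For Cxcl2 they were Clec4e (0.87), Clec4d (0.84) and Ccl3 (0.84), and for Cxcl3 Irg1 (0.82), Gm5483 (0.81) and Clec4e (0.81). For Cxcl5 they were Ptx3 (0.80), Sec61g (0.74) and Slpi (0.73), and for Cxcl1 Errfi1 (0.71), Ptges (0.67) and Ccl2 (0.66). For Pf4 they were C5ar1 (0.90), C1qc (0.86) and Msr1 (0.86), and for Ppbp Chil3 (0.71), Msr1 (0.70) and Ccl12 (0.69). Among the members themselves the value was 0.77 for Cxcl2 with Cxcl3, 0.74 for Cxcl2 with Pf4, 0.71 for Ppbp with Pf4 and 0.19 for Cxcl1 with Pf4.

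The genes around the chemokines moved with the day as well. Of 27 genes for receptors, inducers, NF-kappaB factors, inhibitors, RNA decay factors and binding partners, 25 could be tested at the whole site, and 22 were higher and 1 lower at day 3 than at day 0, beside 35.7% and 34.5% of all genes. At day 7 21 were lower than at day 3 and none higher (28% and 28% of all genes), and at day 21 14 were lower and 3 higher than at day 7 (22.9% and 22.7% of all genes). Against day 0, day 21 had 4 higher and 3 lower (27.1% and 23.7% of all genes), with Sdc1, a heparan sulphate proteoglycan that binds chemokines, at 125 against 20.6 CPM (2.83 ± 0.19).

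Among the inducers at the whole site, Il1b rose to 1150 CPM at day 3 from 61.3 CPM at day 0 (4.64 ± 0.30), Il1a to 29.1 from 0.733 CPM (5.86 ± 1.27) and Il1rn, the antagonist of the interleukin-1 receptor, to 135 from 1.72 CPM (6.52 ± 0.63). The receptor Cxcr2 fell from 12.4 CPM at day 3 to 1.18 CPM at day 7 (-3.59 ± 0.43, edgeR adjusted p = 2.16e-06), beside the fall of granulocyte-like cells, whose own level at day 3 was 185 ± 26.8 CPM (SD, n = 3). Since Cxcr2 and Csf3r are among the 7 markers that named this lineage, a high level there is not a separate result. Cxcr1 had no UMI in the day 0 libraries and 1.35 CPM at day 3. Ackr1, a decoy receptor for these chemokines, was the 1 gene of the list that fell at the whole site at day 3 (-1.02 ± 0.44, edgeR adjusted p = 0.0466). In stromal-like cells it fell from 72.0 to 3.30 CPM (-4.27 ± 0.40). Ackr1 was also among the leading genes of an endothelial-like cluster that held 46 cells at day 0 and 79 at day 3. Endothelial-like cells as a whole went from 32.2% to 1.69% of cells, and their part in the whole-site fall was not tested.

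Within lineages the counts were of the same kind. In macrophage-like cells 14 of 23 tested genes were higher and none lower at day 3 (21.1% and 16.7% of all genes), and 18 were lower and 1 higher at day 7 (15.1% and 14.2% of all genes), with Tnf at 64.3 against 247 CPM (-1.89 ± 0.25). In stromal-like cells 18 of 23 were higher and 2 lower at day 3 (32% and 29.1% of all genes), and 18 lower and 1 higher at day 7 (19.2% and 19.3% of all genes). Csf3, the growth factor of neutrophils, had no UMI in stromal-like cells of day 0 and 11.4 CPM at day 3. The limit on the stromal-like values given above holds for these counts and for Csf3 too. The genes higher at day 3 include Il1rn and Csf3r, itself a granulocyte marker, and the summed macrophage and granulocyte markers rose in the same cells. The part of transcripts of other cell types in the stromal-like counts was not tested.

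The p7N3 libraries were compared with the untreated libraries of day 7, which also enter the comparisons over days. At the whole site Cxcl5 stood at 348, 346, 778 and 811 CPM against 187, 411, 195 and 416 CPM, and Cxcl2 at 1556, 750, 504 and 735 CPM against 444, 247, 449 and 661 CPM. The groups overlapped for all 6 genes, with the p7N3 mean the higher in each. The log2 differences were 0.62 ± 0.26 for Cxcl1, 0.97 ± 0.33 for Cxcl2, 1.91 ± 0.60 for Cxcl3, 0.90 ± 0.43 for Cxcl5, 0.60 ± 0.36 for Ppbp and 0.23 ± 0.14 for Pf4, and none passed (edgeR adjusted p from 0.252 to 0.571). Only 0.00626% of all genes, 1 gene, passed at the whole site, with 1797 genes at an unadjusted p under 0.05 and 155 called by DESeq2.

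No member passed within a lineage either. In stromal-like cells Cxcl2 was 289, 304, 260 and 352 CPM in p7N3 against 175, 110, 185 and 192 CPM at day 7, without overlap (0.88 ± 0.33, edgeR adjusted p = 0.412, where 0.0662% of all genes passed, 0.0294% higher and 0.0368% lower). Cxcl5 in these cells was 760, 775, 1782 and 1520 against 448, 1164, 443 and 907 CPM (0.72 ± 0.41, edgeR adjusted p = 0.595). In macrophage-like cells the 6 log2 differences ran from 0.04 to 0.76, none passed, and no gene of 11603 did (711 at an unadjusted p under 0.05, 18 called by DESeq2). With the finer clustering, which puts the Arg1, Cxcl3 and Il1a cluster into this class, the differences were 2.02 for Cxcl3 and 1.59 for Cxcl1 and did not pass either (edgeR adjusted p = 0.347 and 0.172). In endothelial-like cells none of the 5 tested passed, nor did any of 10619 genes (742 at an unadjusted p under 0.05, 0 called by DESeq2).

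The share of Cxcl2 UMIs from macrophage-like cells was 45.7 ± 14% in p7N3 and 65.9 ± 2.3% at day 7 (SD, n = 4 each; exact permutation test, two-sided, p = 0.0286, the smallest this design allows). These shares ran from 25.2% to 53.6% in p7N3 and from 62.9% to 68.2% at day 7, without overlap. None of the 18 tests of such shares passed after Benjamini-Hochberg adjustment over the 6 genes of a lineage (adjusted p = 0.171 for Cxcl2 here in the exact permutation tests). With 6 genes adjusted together, no gene could pass alone at that smallest p, so a change in a single gene could not be called. Beside this Cxcl2 share, granulocyte-like cells were 1.37% of p7N3 cells and 0.29% of day 7 cells. They held 25.7 ± 24% of Cxcl2 UMIs in p7N3 and 3.78 ± 4.9% at day 7. As given above, this lineage joined neutrophil-type cells with part of the Arg1, Cxcl3 and Il1a cluster. In the finer clustering the Retnlg cluster held 94 p7N3 and 58 day 7 cells, and the Arg1 cluster 182 and 65. None of the 12 tests of shares of cells with a UMI passed either, adjusted in the same way and under the same limit.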

How the data were processed

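The authors made the deposited files from 10x Genomics 3′ libraries with Cell Ranger on mm10. The processing notes name Cell Ranger, Seurat, mm10 and GRCh38. The deposited values are raw UMI counts per gene and cell barcode, 1 matrix a library. The file of day 0 replicate 1 lists 737280 barcodes, far more than those of the other libraries.

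A barcode was taken as a cell from 500 genes upward and with up to 25% mitochondrial UMIs, and no doublets were removed. Cells were clustered with scanpy 1.11.5 (2000 variable genes without the 6 members, 30 components, 20 neighbours, Leiden resolution 0.8, finer alternative 2) and clusters named from fixed markers. Counts were summed per library and lineage (at least 10 cells) and tested with edgeR 4.0.16 (glmQLFit, TMM, low-count filter, Benjamini-Hochberg over all genes tested, threshold 0.05). The study tested single cells with a negative binomial model. Lineages were compared within libraries in one fit with the library as block. Floors of 3 UMIs cover counting error only, while the SEs of edgeR and the SDs include the spread between libraries. Scripts were tested on simulated data. DESeq2 1.42.0 and the other alternatives are in the closing section.

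The members and lists were chosen with earlier results of these data known. Named genes were all 6 members, and of the 27 pathway genes up to 4 per lineage and direction with the largest log2 difference among those past the threshold, with Cxcr1 and Cxcr2 always. Labels repeat replicate numbers across groups. Deviations of same-numbered libraries correlated weakly at the whole site (36 pairs, -0.157 to 0.206, 2 over 0.1). In stromal-like cells they ran from -0.167 to 0.268 (4 over 0.1). Numbers were not taken to pair libraries, but with so few libraries a group these values cannot show whether some shared a run.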

Additional observations from a re-analysis of the deposited data

Results flagged for a closer look

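Of 99 groups of 4 libraries, 11 held a library far from the others by Dixon's test, where chance flags about 1 in 20. At the whole site these were Cxcl2 in day 21 replicate 1 (130 CPM) and Cxcl3 in p7N3 replicate 1 (322 CPM), both high. In macrophage-like cells they were Cxcl3 in day 0 replicate 3 (3.68 CPM, the others at 0) and Cxcl5 in p7N3 replicate 1 (13.3 CPM, low). In stromal-like cells they were Cxcl2 in day 21 replicate 1 (92.0 CPM), Ppbp in day 21 replicate 3 (4.34 CPM) and Cxcl3 in p7N3 replicate 2 (18.2 CPM, low). In endothelial-like cells they were Cxcl1 in day 0 replicate 3 (110 CPM), Cxcl3 in day 21 replicate 1 (0.440 CPM, the others at 0), Cxcl5 in day 0 replicate 4 (0.712 CPM, the others at 0) and Pf4 in p7N3 replicate 4 (226 CPM). Where the others are at 0, a lone library above 0 is flagged whatever its value, so the rate by chance does not apply.

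The macrophage-like minus stromal-like difference changed between days in 5 edgeR interaction tests. The changes on the log2 scale were -4.41 for Pf4 and -2.08 for Cxcl2 from day 0 to day 3, 2.51 for Pf4 and -0.67 for Cxcl5 from day 3 to day 7, and 1.27 for Pf4 from day 7 to day 21. Those of Pf4 and Cxcl2 carry the limit on stromal-like values given above.

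In addition, 4 members gave signal in data that entered no comparison. Day 0 replicate 1 lists 372609 barcodes with at least 1 UMI and fewer than 500 genes, which hold 5212701 UMIs. Their levels were 471 CPM of Cxcl1, 110 CPM of Cxcl2, 443 CPM of Pf4 and 3.26 CPM of Ppbp, close to the values of the kept cells of that library (514, 135, 573 and 2.41 CPM). The other 18 files list 18 to 124 such barcodes each, with 0 to 81.7 CPM of Cxcl1 and 0 to 338 CPM of Cxcl2.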

How the results depend on the processing

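Of the calls over days, 18 were made at the whole site, 16 in macrophage-like, 17 in stromal-like and 13 in endothelial-like cells, and the alternatives gave 17 to 18, 14 to 21, 15 to 18 and 11 to 16. Between lineages within a day the count was 35 (33 to 41). Granulocyte-like cells gave 0 calls over groups, but 4 with no low-count filter and 1 at the finer clustering, and the interactions gave 5, but 15 with no low-count filter; the cause was not tested. Leaving out each library in turn gave 17 to 18 calls at the whole site, 15 to 16 in macrophage-like, 15 to 18 in stromal-like, 11 to 14 in endothelial-like and 0 in granulocyte-like cells, 34 to 38 between lineages and 4 to 7 interactions, and 0 in both families of permutation tests. In these 2 families no gene could pass alone with so few libraries, so their counts of 0 do not speak for stability. In all, 3 member values reversed: the Cxcl5 interaction from day 0 to day 3 with DESeq2 (-3.36, adjusted p = 0.037, against 1.47), and with the finer clustering Ppbp at day 3 (-0.81) and Cxcl1 in p7N3 (-0.31) between granulocyte-like and macrophage-like cells. The replicate number as a block gave 17 calls at the whole site, 16 in macrophage-like, 16 in stromal-like, 13 in endothelial-like and 0 in granulocyte-like cells. The calls of Pf4 at the whole site (day 21 against day 0) and of Cxcl3 in stromal-like cells (day 7 against day 3) were lost with it. The numbers were not taken to pair libraries. With DESeq2 size factors the median of all genes in macrophage-like minus stromal-like cells lay between -0.46 and -0.17. Leaving out stromal-like cells with a Ptprc UMI was chosen after seeing the data. For granulocyte-like cells 2 planned settings gave no value, at least 20 cells a sum and replicates 1 to 3 alone. Depth limits Cxcl3, Cxcl5 and Ppbp at day 0, which rest on 11, 16 and 45 UMIs.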
